A study of Homo sapiens with 12 samples.

Results

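The monoclonal antibody PW30 binds CD30, the receptor of the natural CD30 ligand. The 10 genes described here (VASP, NBPF9, CNST, LEPROT, KMT2E, SRPK2, PHACTR2, ATP8A1, EP300 and ZBTB40) were selected on their array signal, because it differed after PW30 from that after the ligand and after a further antibody, T104. Each is followed through every probe that the platform annotation, with symbols updated by Entrez identifier, gives for it. They are 10 of 8113 genes measured, and the array holds 17 probes for them among 48780, of which 13 were detected. In L540 cells, an established Hodgkin lymphoma line, VASP was higher after PW30 and the other 9 genes lower, on their brightest probes. A further detected probe of NBPF9 and one of SRPK2 had the opposite sign against the ligand and T104. The choice used the PW30, ligand and T104 arrays, so for the 10 genes every difference that involves these arrays is given below as a description without a p-value, and for the brightest probe mostly with its standard error (SE). Other genes are tested in these comparisons.

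CD30 (TNFRSF8) is a member of the TNF receptor superfamily that lacks a death domain. When the ligand or an antibody draws receptors together, TRAF adaptors bind their tails and the NF-kB pathway is switched on. Hodgkin lymphoma cells carry the receptor in abundance, which makes it a target for antibodies. The 10 genes belong to no single pathway. VASP and PHACTR2 act on actin, EP300 and KMT2E on chromatin, SRPK2 on splicing factors, ATP8A1, LEPROT and CNST on membranes and their traffic, ZBTB40 is a zinc finger protein, and NBPF9 belongs to a family of recent gene copies.

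The series held 12 BeadChip arrays in 6 groups of 2 biological duplicates. The treated groups received, at 10 µg/ml, the mouse/human chimeric antibody PW30, the ligand fused to an Fc part (CD30L-Fc, also called CD153-Fc), or the anti-CD30 antibody T104, T427 or T408, and the last group was untreated. All cells were cultured for 16 h beforehand. The series text gives 8 h of treatment and calls the 24 h of the sample labels wrong, and it writes T428 for the antibody that the labels call T408. All groups come from a single cell line, and a treatment with an antibody against another target was not analysed here, so effects of the Fc part and of binding CD30 cannot be told apart.

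Of the Hodgkin cell markers, 8 of 8 were detected, meaning on both arrays of at least 1 group. TNFRSF8 was among them, with mean log2 signals of 7.17 after PW30, 7.39 after CD30L-Fc and 7.42 after T104. These are low signals, since the dimmest detected probes of these groups averaged 6.65, 6.81 and 6.95. CCL17 was dim in untreated cells (5.02) and after T427 (5.31) and T408 (5.23), and higher after PW30 (6.83), CD30L-Fc (7.15) and T104 (7.66). Of the B cell and the fibroblast and epithelial markers, 0 of 5 and 0 of 6 were detected. The T cell list had 2 of 6 (CD2 and CD247) and the monocyte list 2 of 5 (CSF1R and CD68). Pearson's r between duplicates, over detected probes, lay between 0.989 and 0.993. On the first principal component, which holds 44.3% of the variance, the PW30 arrays scored -14.1 and -13.9. There they lay with those of CD30L-Fc (-12.4 and -12.8) and T104 (-14.2 and -14.1). The T427 and T408 arrays scored 10.9 to 11.6 and the untreated ones 19.4 and 17.5. The PW30 arrays stood apart as a pair on the second component, which holds 11.3% of the variance. On it they scored 13.6 and 12.6, against -9.20 to 4.71 on the other 10 arrays. Their median signal before normalization was 131.4 and 130.3, against 140.4 to 150.5 on the CD30L-Fc and T104 arrays, 129.9 to 136.3 on those of T427 and T408 and 148.6 to 151.7 on the untreated ones, so on this measure they lay with T427 and T408. Whether the second component or the median signal bears on the values below was not tested.

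Promoter sequences show what lies directly before these genes. NF-kB is the pathway that CD30 feeds, so the 250 bases before each annotated start were searched for the kappa-B consensus on both strands. RefSeq (GRCh38.p14) gave promoter windows for 9 of the 10 genes, 14 windows in all because SRPK2 and PHACTR2 have several starts. ZBTB40 had none in the table used. The consensus was found before 4 genes, VASP, NBPF9, PHACTR2 and ATP8A1, in 5 of the 14 windows, where 9.96% of all 35114 windows of that length hold it. One window of each is printed, with the matches in capitals.
VASP (chr19:45507229-45507478, plus strand): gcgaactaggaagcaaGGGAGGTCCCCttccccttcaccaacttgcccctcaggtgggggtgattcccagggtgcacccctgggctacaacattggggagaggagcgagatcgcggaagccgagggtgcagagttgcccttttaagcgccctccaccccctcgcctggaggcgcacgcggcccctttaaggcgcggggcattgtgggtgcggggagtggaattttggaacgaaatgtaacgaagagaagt
NBPF9 (chr1:149103552-149103801, minus strand): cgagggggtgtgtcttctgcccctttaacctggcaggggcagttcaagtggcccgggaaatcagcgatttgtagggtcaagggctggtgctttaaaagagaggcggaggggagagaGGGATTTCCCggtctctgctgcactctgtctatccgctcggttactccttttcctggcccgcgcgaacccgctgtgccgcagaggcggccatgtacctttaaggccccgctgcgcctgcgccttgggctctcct
PHACTR2 (chr6:143536628-143536877, plus strand): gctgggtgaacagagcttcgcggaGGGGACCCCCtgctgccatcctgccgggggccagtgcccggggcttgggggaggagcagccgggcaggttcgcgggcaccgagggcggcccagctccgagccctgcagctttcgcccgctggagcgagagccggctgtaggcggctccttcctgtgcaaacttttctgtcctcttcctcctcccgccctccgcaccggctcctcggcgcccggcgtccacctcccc
ATP8A1 (chr4:42657106-42657355, minus strand): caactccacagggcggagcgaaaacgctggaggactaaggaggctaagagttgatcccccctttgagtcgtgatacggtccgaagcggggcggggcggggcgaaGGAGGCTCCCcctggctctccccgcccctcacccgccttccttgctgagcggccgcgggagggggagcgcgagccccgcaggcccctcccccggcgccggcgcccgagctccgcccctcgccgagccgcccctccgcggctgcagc

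The VASP capitals cover overlapping matches on both strands. The AP-1 motif TGANTCA, the cAMP response element TGACGTCA and the SRF CArG box were found in 0 of the 14 windows, and 6.57%, 1.65% and 1.16% of all windows hold them. The E-box CACGTG was found in 1 window, that of CNST, where 6.35% of all windows hold it. The matches fall on both sides of the contrast, since VASP was higher after PW30 and NBPF9, PHACTR2 and ATP8A1 were lower on their brightest probes. A match of letters is not a measured binding site.

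VASP, which promotes the elongation of actin filaments at the cell's leading edge, was the gene that was higher after PW30. Its brightest probe read log2 signals of 9.01 and 8.47 after PW30, 7.46 and 7.41 after CD30L-Fc, 8.05 and 8.12 after T104, 7.54 and 7.27 after T427, 7.92 and 7.87 after T408, and 8.08 and 7.77 in untreated cells. Both PW30 arrays lay above the other 10, and the PW30 duplicates were themselves the farthest apart, by 0.53. PW30 exceeded CD30L-Fc by a log2 of 1.31 ± 0.17 (2.48-fold), T104 by 0.66 ± 0.17 (1.58-fold) and untreated cells by 0.82 ± 0.17. Against untreated cells CD30L-Fc stood at -0.49 ± 0.17 and T104 at 0.16 ± 0.17. The T104 arrays were above the CD30L-Fc arrays by 0.65 ± 0.17 without overlap. Without PW30 replicate 1 the difference from T104 was 0.39.

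PHACTR2 encodes a regulator that binds actin and protein phosphatase 1. Its probe read 7.10 and 7.17 after PW30, 8.51 and 7.93 after CD30L-Fc, 8.66 and 8.36 after T104, 8.16 and 8.27 after T427, 7.78 and 8.42 after T408, and 7.83 and 8.14 in untreated cells. The PW30 duplicates lay close together and below the other 10 arrays, while the 5 other groups overlapped their neighbours in order of level. PW30 differed by -1.09 ± 0.22 from CD30L-Fc, by -1.38 ± 0.22 from T104 and by -0.85 ± 0.22 from untreated cells. Of 29 listed genes of actin assembly and its regulation, the VASP relatives ENAH and EVL included, 24 were measured. Against CD30L-Fc 0 of the 24 passed the limma test in either direction, with a median log2 of 0.01 beside -0.01 over all genes. Against T104 it was also 0, with a median of 0.03 beside 0.00. Over all genes only 0.16% and 0.32% passed, so a count of 0 in this list or a later one tells little.

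**Figure D1:**
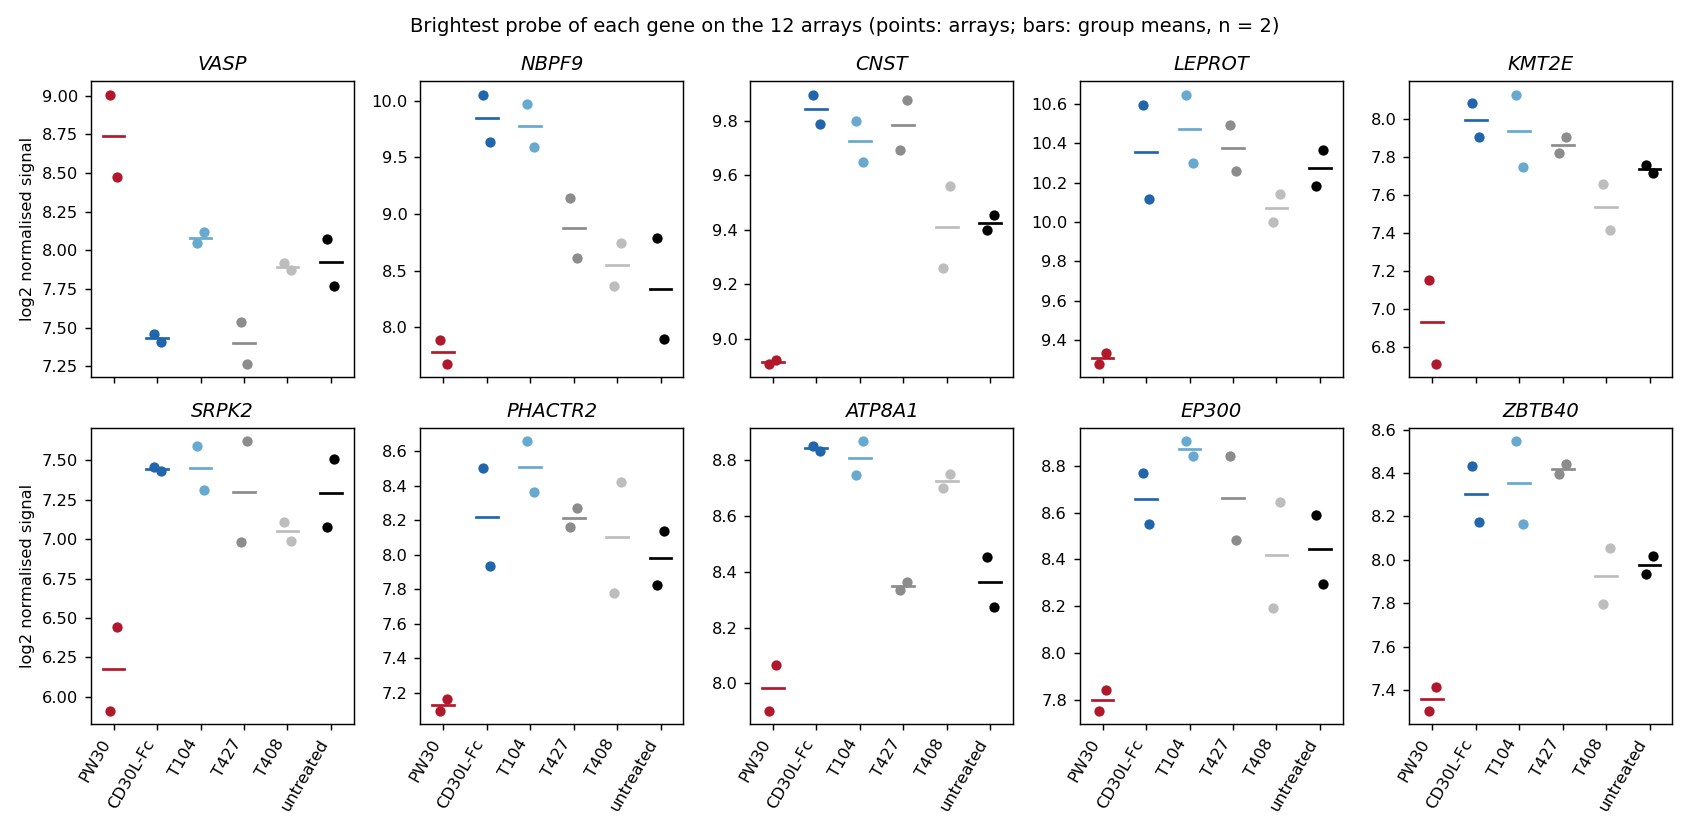
Log2 normalised signal (vertical axis, scaled for each gene) of the brightest probe on each array (points) with group means (bars), by group. The PW30 points are the highest of the 12 for VASP and the lowest for the other 9 genes.

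The chromatin genes were lower after PW30. EP300 is an acetyltransferase and coactivator that works with many transcription factors, NF-kB among them. It read 7.75 and 7.84 after PW30, 8.77 and 8.55 after CD30L-Fc, 8.91 and 8.84 after T104, 8.84 and 8.48 after T427, 8.19 and 8.64 after T408, and 8.59 and 8.30 in untreated cells. All 10 other arrays were above both PW30 arrays, although those of T408, T427 and untreated cells spread widely. The differences of PW30 were -0.86 ± 0.17 from CD30L-Fc (the ligand 1.82-fold higher), -1.08 ± 0.17 from T104 (T104 2.11-fold higher) and -0.65 ± 0.17 from untreated cells. Of 13 listed histone acetyltransferases, its relative CREBBP included in the list, 8 were measured. Of the 8, 0 passed against either CD30L-Fc or T104, where 0.16% and 0.32% of all genes did. The medians of the 8 were -0.10 and -0.04.

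KMT2E, a SET and PHD finger protein that reads methylated histones, read 7.15 and 6.71 after PW30, 8.08 and 7.91 after CD30L-Fc, 8.13 and 7.75 after T104, 7.82 and 7.90 after T427, 7.66 and 7.42 after T408, and 7.76 and 7.71 in untreated cells on its brightest probe. PW30 was lowest, T408 came next without overlap with its neighbours in order of level, and the ligand, T104 and T427 overlapped at the top. PW30 differed by -1.06 ± 0.17 from CD30L-Fc, by -1.01 ± 0.17 from T104 and by -0.80 ± 0.17 from untreated cells. Of 22 listed histone lysine methyltransferases 15 were measured and 0 passed in either comparison, where 0.16% and 0.32% of all genes did. The medians of the 15 were -0.13 against both CD30L-Fc and T104. The largest value among them was that of KMT5B, a histone H4 methyltransferase, at 0.89 ± 0.16 against CD30L-Fc (limma adjusted p = 0.0661) and 0.48 ± 0.16 against T104 (limma adjusted p = 0.25), named after its value was seen.

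SRPK2 phosphorylates the SR proteins that guide splicing. Its brightest probe read 5.91 and 6.44 after PW30, 7.46 and 7.43 after CD30L-Fc, 7.59 and 7.31 after T104, 6.98 and 7.62 after T427, 7.11 and 6.99 after T408, and 7.08 and 7.51 in untreated cells. The probe was not detected on either PW30 array and was detected on the other 10, so the fold is a bound. On this probe SRPK2 was at least 1.74-fold lower after PW30 than after CD30L-Fc and at least 1.75-fold lower than after T104. It was at least 1.56-fold lower than in untreated cells. The bound sets the PW30 level no lower than the dimmest detected probe on each array. The groups other than PW30 all overlapped their neighbours. A further detected probe of SRPK2, described below, had the opposite sign against CD30L-Fc and T104. Of 18 listed SR protein kinases and SR proteins 16 were measured. Of the 16, 0 passed against either CD30L-Fc or T104, where 0.16% and 0.32% of all genes did. The medians of the 16 were -0.13 against CD30L-Fc and -0.09 against T104.

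KMT2E and SRPK2 are neighbours in the RefSeq gene table, with no protein-coding gene listed between them on chromosome 7. Of the 10 genes 4 (NBPF9, CNST, LEPROT and ZBTB40) lie on chromosome 1, which holds 9.91% of the tested genes. The remaining members are on chromosomes 19 (VASP), 6 (PHACTR2), 4 (ATP8A1) and 22 (EP300).

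Among the membrane genes, ATP8A1, a flippase that moves phosphatidylserine to the inner leaflet, had the tightest duplicates. It read 7.90 and 8.07 after PW30, 8.85 and 8.83 after CD30L-Fc, 8.75 and 8.87 after T104, 8.33 and 8.36 after T427, 8.70 and 8.75 after T408, and 8.45 and 8.27 in untreated cells. The ligand, T104 and T408 formed an upper set, untreated cells and T427 a middle one, and PW30 lay below. PW30 differed by -0.86 ± 0.12 from CD30L-Fc, by -0.82 ± 0.12 from T104, by -0.74 ± 0.12 from T408, and by -0.38 ± 0.12 from untreated cells. Of 19 listed flippases and their partners 8 were measured, with medians of 0.00 against CD30L-Fc and -0.09 against T104. Of the 8, 0 were called in either comparison, where 0.16% and 0.32% of all genes were.

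LEPROT encodes an endosomal membrane protein that limits the leptin receptor at the cell surface, and its gene shares its first exons with LEPR. It read 9.28 and 9.34 after PW30, 10.59 and 10.11 after CD30L-Fc, 10.65 and 10.30 after T104, 10.49 and 10.26 after T427, 10.00 and 10.14 after T408, and 10.18 and 10.37 in untreated cells. PW30 stood alone at the bottom, and the ligand, T104, T427 and untreated cells overlapped. The differences of PW30 were -1.04 ± 0.17 from CD30L-Fc, -1.16 ± 0.17 from T104 and -0.97 ± 0.17 from untreated cells. LEPR itself differed by -0.33 ± 0.23 from CD30L-Fc and -0.42 ± 0.23 from T104, and the paralogue LEPROTL1 by 0.01 ± 0.12 and -0.08 ± 0.12, none of them called by limma (adjusted p from 0.497 to 0.977). LEPR was dim, with means of 6.31 after PW30, 6.64 after CD30L-Fc and 6.73 after T104. The dimmest detected probes of these groups averaged 6.65, 6.81 and 6.95, so the LEPR differences lie near background.

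CNST encodes consortin, a protein of the trans-Golgi network that helps connexins reach the plasma membrane. It read 8.91 and 8.92 after PW30, 9.90 and 9.79 after CD30L-Fc, 9.80 and 9.65 after T104, 9.69 and 9.88 after T427, 9.26 and 9.56 after T408, and 9.40 and 9.45 in untreated cells. The ligand, T427 and T104 lay highest, untreated cells and T408 overlapped below them, and the PW30 duplicates differed by only 0.01. The difference of PW30 was -0.93 ± 0.13 from CD30L-Fc, -0.81 ± 0.13 from T104 and -0.51 ± 0.13 from untreated cells. Connexins were mostly too dim to compare, with 2 of 15 measured. Of the 2, 0 were called against CD30L-Fc or T104, where 0.16% and 0.32% of all genes were.

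ZBTB40, a BTB zinc finger protein, read 7.31 and 7.41 after PW30, 8.43 and 8.17 after CD30L-Fc, 8.55 and 8.16 after T104, 8.40 and 8.44 after T427, 7.79 and 8.05 after T408, and 7.94 and 8.02 in untreated cells. As for CNST, its order of levels kept the ligand, T104 and T427 above untreated cells and T408, with PW30 last. PW30 differed by -0.94 ± 0.15 from CD30L-Fc, by -1.0 ± 0.15 from T104 and by -0.62 ± 0.15 from untreated cells. Among 22 measured genes of 42 listed in the ZBTB family, 0 passed against CD30L-Fc or T104, where 0.16% and 0.32% of all genes did. The medians of the 22 were -0.03 against CD30L-Fc and -0.01 against T104. The lowest was ZBTB43, named after its value was seen, at -1.07 ± 0.23 against CD30L-Fc (limma adjusted p = 0.0878) and -1.03 ± 0.23 against T104 (limma adjusted p = 0.101).

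NBPF9 had the widest range. It belongs to the neuroblastoma breakpoint family, whose near-identical copies on chromosome 1 can share probe sequence, so the signal may not come from NBPF9 alone. Its brightest probe read 7.89 and 7.68 after PW30, 10.06 and 9.64 after CD30L-Fc, 9.98 and 9.59 after T104, 9.14 and 8.61 after T427, 8.37 and 8.74 after T408, and 8.79 and 7.89 in untreated cells. The ligand and T104 were above all other groups, and the untreated duplicates were 0.89 apart, with the lower one just above PW30. PW30 differed by -2.06 ± 0.28 from CD30L-Fc, which was 4.18-fold higher on the linear scale, and by -2.0 ± 0.28 from T104, which was 4.0-fold higher. The difference of PW30 from untreated cells was -0.56 ± 0.28. A further detected probe of NBPF9, described below, had the opposite sign. Of 14 listed relatives 4 were measured. NBPF10 was lower after PW30 than after T104, with a log2 difference of -1.06 ± 0.17 (limma adjusted p = 0.0355), and stood at -0.86 ± 0.17 against CD30L-Fc (limma adjusted p = 0.0807), while NBPF3, NBPF11 and NBPF14 did not pass, at -0.14 to 0.25. This too rests on the brightest probe, since the next detected probe of NBPF10 stood at 0.13 against T104 and -0.05 against CD30L-Fc. The NBPF10 mean was 9.53 after PW30, against 9.32 in untreated cells.

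**Figure D2:**
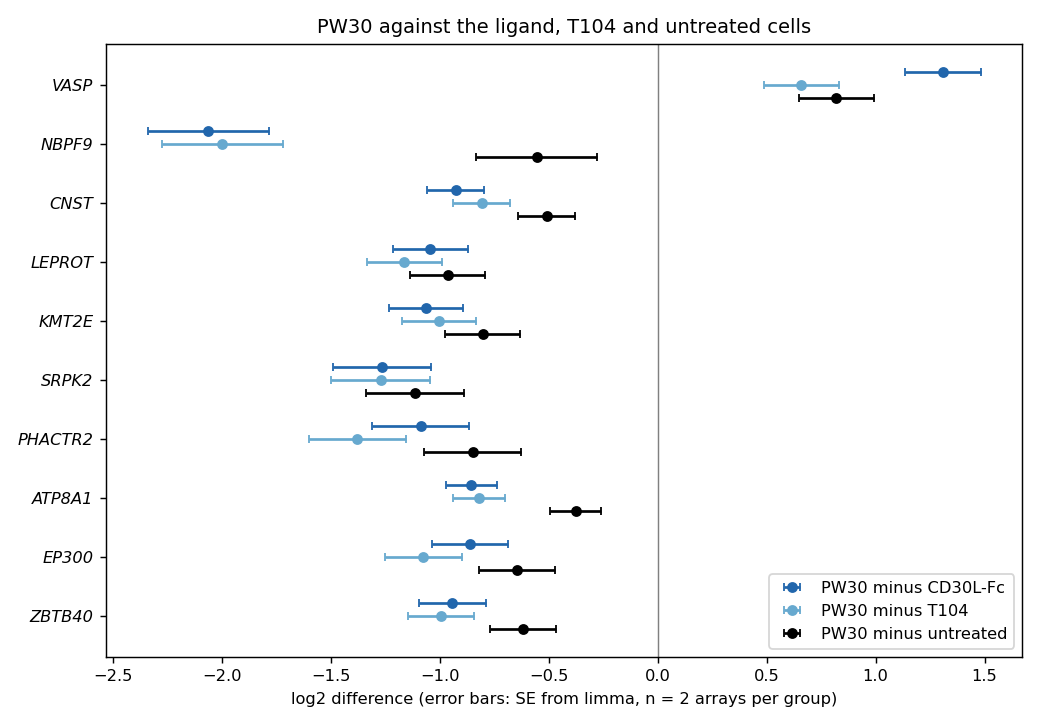
Log2 difference (horizontal axis) of PW30 from CD30L-Fc, from T104 and from untreated cells for each gene, with bars of 1 SE of the limma model, 2 arrays in each group. The points of VASP lie right of 0 and those of the other 9 genes left of it, and for NBPF9 the difference from untreated cells is far smaller than those from CD30L-Fc and T104. The SRPK2 probe was not detected on either PW30 array, so its points are not measured folds and only the bounds in the text hold.

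The groups were also set against untreated cells, as a description. After PW30, 1 gene had both arrays above both untreated arrays and 9 had both below, where 21.1% and 30% of all genes did so. After CD30L-Fc the counts were 5 above and 1 below, where 21.5% and 28.2% of all genes did so, and after T104 they were 6 above and 0 below, where 21.2% and 29.3% did so. These comparisons share the untreated arrays, and the choice of genes bears on all of them, since it used the PW30, CD30L-Fc and T104 arrays, so nothing is read from the counts. On the brightest probe of NBPF9 most of the departure lay on the side of the ligand and T104. They were above untreated cells by 1.51 ± 0.28 and 1.44 ± 0.28, but the untreated duplicates were 0.89 apart, so the split is uncertain. On its further detected probe the ligand and T104 stood at -0.15 and -0.06 against untreated cells. ATP8A1 was split more evenly, with the ligand and T104 above untreated cells by 0.48 ± 0.12 and 0.44 ± 0.12. On the brightest probes of LEPROT, KMT2E and SRPK2 the ligand and T104 stayed within 0.26 of untreated cells and PW30 lay below.

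All 10 genes had both PW30 arrays outside the 4 CD30L-Fc and T104 arrays, 1 above and 9 below, where 11.7% and 14% of all genes did so. They also had both PW30 arrays outside all 10 other arrays, where 3.55% of all genes lay above and 6.02% below. The choice of genes fixes the first of these counts and bears on the second, so neither is a result. In the whole table limma called 13 of 8113 genes (0.16%) at an adjusted p below 0.05 between PW30 and CD30L-Fc, 4 higher and 9 lower, and 26 (0.32%) between PW30 and T104, 8 higher and 18 lower. The count against CD30L-Fc was 0 without PW30 replicate 1, 2 without PW30 replicate 2 or CD30L-Fc replicate 1, 8 without CD30L-Fc replicate 2 or either T427 replicate, and 7 without either untreated replicate. Against T104 it was 0 without either PW30 replicate or T104 replicate 1, 13 without T104 replicate 2 and 7 without either CD30L-Fc replicate. Of 10 genes known to respond to CD30 (TNFRSF9, TRAF1, RELB, IL4I1, LTA, EBI3, NFKBIA, NFKB2, TNFAIP3 and CD70), chosen with their earlier results known, 0 passed in either comparison. Their differences of PW30 from CD30L-Fc lay between -0.06 and 0.25 with a median of 0.03, where that of all genes was -0.01. The median of the 10 genes, fixed by their choice, was -0.99.

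Other probes of the same genes gave a different reading for NBPF9 and SRPK2, and a smaller one for KMT2E. Only 4 of the 10 genes have more than 1 probe on the array. The further detected probe of NBPF9 read 7.63 and 7.97 after PW30, 7.47 and 7.30 after CD30L-Fc, 7.54 and 7.41 after T104, 7.54 and 7.82 after T427, 7.95 and 7.38 after T408, and 7.52 and 7.56 in untreated cells. On it PW30 was higher than CD30L-Fc by 0.41 and than T104 by 0.32, opposite in sign to the brightest probe, and the PW30 arrays overlapped those of T427 and T408.

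The further detected probe of SRPK2 read 6.94 and 6.80 after PW30, 6.49 and 6.06 after CD30L-Fc, 6.54 and 6.69 after T104, 7.06 and 6.85 after T427, 6.91 and 7.19 after T408, and 7.34 and 6.68 in untreated cells. It was detected on both PW30 arrays and on neither CD30L-Fc nor T104 array, the reverse of the brightest probe, and PW30 was at least 1.04-fold higher than CD30L-Fc, with no fold above 1 against T104. The PW30 arrays overlapped those of T427, T408 and untreated cells. The remaining SRPK2 probe was detected on 0 arrays.

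For KMT2E the further detected probe read 7.59 and 6.99 after PW30, 7.61 and 7.60 after CD30L-Fc, 7.47 and 7.79 after T104, 7.66 and 7.70 after T427, 7.63 and 7.25 after T408, and 7.54 and 7.60 in untreated cells. The difference had the sign of the brightest probe but was smaller, at -0.32 from CD30L-Fc and -0.34 from T104, and PW30 replicate 1 overlapped the T104 arrays. The annotation assigns it to a different KMT2E transcript from the brightest probe. For NBPF9 and for SRPK2 the annotation assigns the brightest and the further detected probe to the same transcript. The other KMT2E probes and the further VASP probe were detected on 0 arrays, so VASP rests on a single probe.

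**Figure D3:**
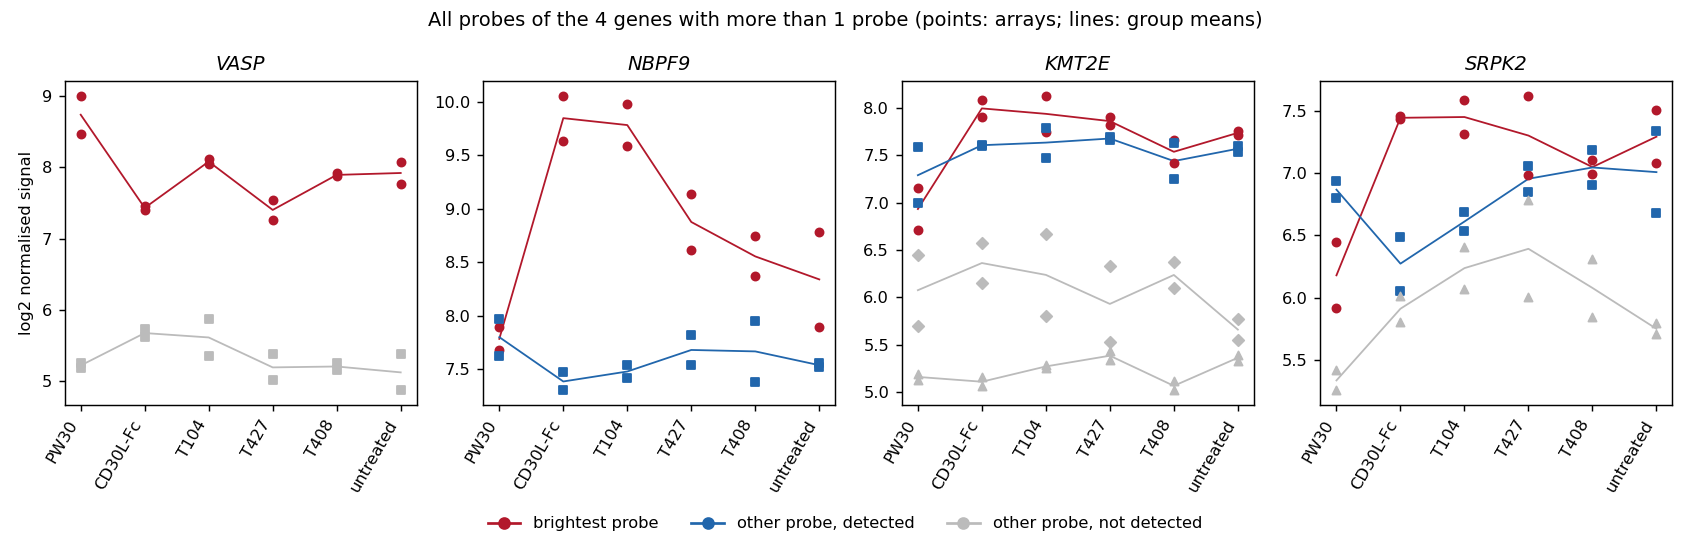
Log2 normalised signal (vertical axis) of every probe of VASP, NBPF9, KMT2E and SRPK2 on the 12 arrays (points) with lines through the group means. The brightest probes of NBPF9 and SRPK2 drop on the PW30 arrays while their other detected probes do not.

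For comparison, 1884 genes of the whole array had a further detected probe. Among those outside the 10, 7 had a brightest probe lower after PW30 by a log2 of at least 0.8 against both CD30L-Fc and T104, a limit set after the values were seen. The next brightest probe was lower in both comparisons for 4 of the 7, and reached the same limit for 1, CREBRF. CNST, LEPROT, PHACTR2, ATP8A1, EP300 and ZBTB40 have a single probe each, so the same check could not be made for them.

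How alike the genes ran over the 12 arrays is given as a description, since they were chosen for a shared departure after PW30. Likeness was measured as the root mean square distance between log2 values centred on each gene's own mean. CNST and ZBTB40 were the closest pair, at 0.10, and LEPROT lay 0.14 from ZBTB40. NBPF9 was the loosest of the 9, 0.51 from its nearest member EP300, and VASP was 0.69 from its nearest, ATP8A1. Among all other genes, USP13, a ubiquitin peptidase, was nearest to LEPROT (0.09), ZBTB40 (0.12) and SRPK2 (0.24). Its group means were 9.76 after PW30, 10.73 after CD30L-Fc, 10.90 after T104, 10.87 after T427, 10.56 after T408 and 10.66 in untreated cells, with PW30 lowest. The nearest to NBPF9 was its relative NBPF10 (0.43). The others were ASXL2, a polycomb-related protein, to CNST (0.13), CCNY, a cyclin, to KMT2E (0.16), TSR1, a ribosome maturation factor, to PHACTR2 (0.17), SLC10A7 to ATP8A1 (0.15), NEMF, a ribosome quality control factor, to EP300 (0.12) and PTMA, prothymosin alpha, to VASP (0.28).

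The T427, T408 and untreated arrays took no part in the choice, so here the genes were tested. The spread of the model, however, also rests on the PW30, CD30L-Fc and T104 duplicates. The p-values and intervals are therefore not free of the choice, and they may be too small. How far was not tested. The question was whether other antibodies against CD30 move them too. Of the 10 genes limma called 0 after T427 (27 of 8113 called, 0.333%), 0 after T408 (22 called, 0.271%) and 0 between T427 and T408 (0 called, 0%). At an unadjusted p below 0.05 there were 3 of the 10 after T427, where 7.51% of all genes passed, 1 after T408, where 7.99% did, and 4 between T427 and T408, where 4.76% did. With 2 arrays against 2 an exact permutation test cannot go below p = 0.333, so the shared spread of the limma model carries these tests.

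After T427, VASP was at -0.52 against untreated cells with a 95% interval of -0.90 to -0.14 (limma adjusted p = 0.504). ZBTB40 was at 0.44, with an interval of 0.11 to 0.77 (limma adjusted p = 0.516), and CNST at 0.36, with an interval of 0.07 to 0.65 (limma adjusted p = 0.55). VASP was thus lower and both other genes higher, the direction opposite to that of PW30, but none passed the adjustment. NBPF9 stood at 0.54, with an interval of -0.07 to 1.14, but at 0.98 without untreated replicate 1 and 0.09 without untreated replicate 2. The remaining 6 lay between -0.01 and 0.23.

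After T408 the largest value was that of ATP8A1, at 0.36 with an interval of 0.10 to 0.62 (limma adjusted p = 0.424). The other 9 lay between -0.24 and 0.22, and VASP, NBPF9, CNST, PHACTR2, EP300 and ZBTB40 changed sign when 1 array was left out. For LEPROT the interval was -0.58 to 0.18, and for SRPK2 it reached -0.74. Intervals this wide do not show that T427 or T408 left the genes as they were.

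Between T427 and T408, 8 of the 10 differences were positive, of which SRPK2 and PHACTR2 changed sign when 1 array was left out. ZBTB40 was at 0.50 (0.16 to 0.83), CNST at 0.37 (0.09 to 0.66), VASP at -0.49 (-0.87 to -0.12) and ATP8A1 at -0.37 (-0.63 to -0.12), with limma adjusted p of 0.998 for each. On the second principal component the T427 arrays scored -3.53 and -1.70 and the T408 arrays 4.71 and 0.20, the T408 side being that of PW30. The part of this in the differences was not tested. Of the 10 CD30 response genes limma called 8 higher after T427 and 7 after T408, with median log2 changes of 1.20 each. Of all genes 0.333% and 0.271% were called in either direction. The list was chosen with its earlier results known, so it is no independent control.

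**Figure D4:**
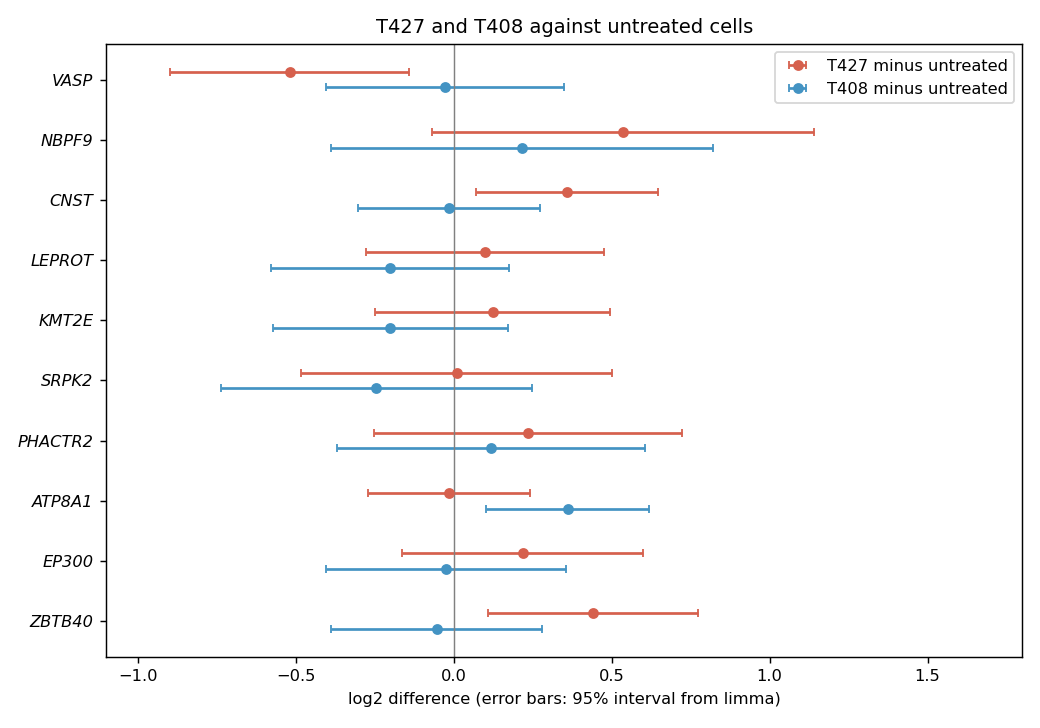
Log2 difference (horizontal axis) of T427 and of T408 from untreated cells for each gene, with 95% intervals from limma. The intervals of VASP, CNST and ZBTB40 after T427 and of ATP8A1 after T408 leave out 0, and none of these passed the adjustment over 8113 genes.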

How the data were processed

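L540 RNA was hybridised to Illumina HumanHT-12 v3 BeadChips. The authors used GenomeStudio, per the submitters' processing notes, and BeadStudio, per the series text; neither source names a version. For each of 48780 probes the deposited table before normalization gives a linear signal intensity and a detection p-value, per the file headers. The authors' processed intensity table, read as quantile-normalised from its near-identical columns (medians 138.9 to 139.0), served as an alternative.

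From the deposited intensities, log2 values were made with limma 3.58.1 under R 4.3.3. Normexp background correction took its control moments from the deposited detection p-values, 16 was added, and arrays were quantile-normalised. A single gene was given for 28082 probes, several for 13 and none for 20685. For 28043 probes the symbol was taken from RefSeq through the Entrez identifier, whether or not it changed. A probe was used if both arrays of some group detected it (p below 0.01), which left 11949, and each of 8113 genes was read from its brightest probe by mean log2. The limma model held 6 group means and all 12 arrays. Tests were two-sided, with Benjamini-Hochberg adjustment within each comparison and a call below 0.05. On simulated data for T427 against untreated (8113 genes) it recovered 16% of genes raised by a log2 of 0.5, 76% at 1 and 98% at 2. Of genes lowered by 1 it recovered 94%, and there were 8 false calls. The simulated noise was independent between genes, and recovery in the real data may be lower. Precision is limited by having 2 arrays a group, and p-values measure the spread between these duplicates.

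The members and the gene lists were chosen with earlier results of these data known. Named genes are the members, TNFRSF8, up to 2 called genes per list with the smallest p against CD30L-Fc or T104, and the gene nearest to each member; others are marked where they stand. Alternatives were another background correction, scaling, filter, probe choice, variance prior and sample set, the replicate number as a block, and leaving out each array.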

Additional observations from a re-analysis of the deposited data

How the results depend on the processing

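Under each of 23 alternatives 0 of the 10 genes was called after T427, after T408 or between T427 and T408. The PW30 differences of single genes from CD30L-Fc and T104 kept their sign in 378 of 378 values, over the 19 alternatives that give such values for the brightest probe or the mean of probes. The further detected probes of NBPF9 and SRPK2, read alone, had the opposite sign. The count of genes with both PW30 arrays outside the CD30L-Fc and T104 arrays stayed at 10 over 19 alternatives, except for 9 with detection on all 12 arrays, where SRPK2 is not tested. Neither the signs nor this count could change in the 12 alternatives that leave out an array. Both PW30 arrays of each gene lay outside the CD30L-Fc and T104 arrays, which the choice of genes fixed. The sizes did change. The median difference over the 10 genes from CD30L-Fc was -0.99, but -0.64 with no background correction or with the authors' processed table, and that from T104 was -1.04, but -0.68 with either of these and -0.83 with the mean of detected probes. With that mean NBPF9 was at -0.82 and -0.84 from CD30L-Fc and T104.

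Of 657 tested values of single genes 20 changed sign, 0 of them called. After T427, leaving out 1 array gave -0.016 to 0.22 for LEPROT, -0.31 to 0.33 for SRPK2 (-0.022 with the mean of probes) and -0.10 to 0.074 for ATP8A1. After T408 it gave -0.18 to 0.13 for VASP, -0.23 to 0.66 for NBPF9, -0.16 to 0.13 for CNST, -0.20 to 0.44 for PHACTR2, -0.25 to 0.20 for EP300 and -0.18 to 0.075 for ZBTB40. Median scaling gave 0.055 for VASP, 0.046 for CNST, 0.042 for EP300 and 0.017 for ZBTB40 there. Between T427 and T408 leaving out 1 array gave -0.067 to 0.57 for SRPK2 and -0.21 to 0.44 for PHACTR2.

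Counts over all genes depended on the setting. For PW30 against CD30L-Fc (13) they were 59 with no background correction, 34 with an offset of 50, 60 with the authors' processed table, 0 with no filter on dim probes, 32 with detection on all 12 arrays, 6 with all detected probes or their mean, 1 with only the compared arrays, 71 with a trend in the variance prior, and 0 to 16 leaving out 1 array. Median scaling gave 1 higher and 15 lower and moved the median of all genes to -0.11, against -0.01. For PW30 against T104 (26) they were 65, 64 and 2 with no background correction, the authors' processed table and no filter, 16 with median scaling (3 higher, 13 lower), 14 with the mean of probes, 1 with the compared arrays, 73 with the trend, and 0 to 24 leaving out 1 array. For T427 (27) they were 10 with no filter, 5 with the compared arrays and 8 to 24 leaving out 1 array, with 16, 8 and 12 without T427 replicate 1, T427 replicate 2 and untreated replicate 2. For T408 (22) they were 34 with no background correction or the authors' processed table, 13 with no filter, 9 with the compared arrays, 41 with the trend, and 14 (without T408 replicate 2) to 31 leaving out 1 array. Between T427 and T408 it was 0 throughout. The cause of these changes was not tested.

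Groups share replicate numbers in the labels, but nothing says that these mark a shared culture, and deviations of same-numbered arrays correlated at -0.08 to 0.11 over 15 pairs of groups, so they were not taken as pairs. With the replicate block the counts were 23 for T427, 20 for T408, 0 between them, 9 for PW30 against CD30L-Fc and 19 against T104. A block for the slide was not run because the headers used here name no chip.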
